A study of Mus musculus with 21 samples.

Results

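The effect of Tet1CD on gene expression was measured in mouse embryonic fibroblasts (MEFs) undergoing reprogramming in medium without vitamin C (Vc). It rests on 6 of the 21 RNA sequencing libraries of the series, chosen by their labels as 3 pairs that differ in Tet1CD. In the control pair, Tet1CD was set against the library named Flag+shLuc, an empty tag vector with a hairpin against luciferase. In the pair labelled Dnmt1, Tet1CD was added to a Dnmt1 construct (the label of that library spells it Dmnt1), and in the shDnmt1 pair it was added to a hairpin against Dnmt1. All 6 cultures were ICR fibroblasts at passage 2 from 13.5-day embryos. They had been infected with retroviruses carrying Oct4, Klf4, c-Myc and Sox2, the factors called SKOM in the labels, and were harvested on day 5 in serum medium with leukaemia inhibitory factor. The 7th library grown without vitamin C, shp53+shDnmt1, has no partner with Tet1CD and was left out. Each combination of constructs has 1 library, so the 3 pairs stand in for replicates. Nothing in the labels says whether they came from separate cell preparations. The p-values therefore rest on no other replication than the spread of the Tet1CD difference between these pairs. That spread is moderated by limma towards the variance of other genes at a similar level. The study asked how modulating the cell cycle and Dnmt1 expression alters expression in MEFs and in reprogramming cells.

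Tet1 is a dioxygenase that oxidizes the methyl group of 5-methylcytosine in DNA, a step on one route by which methylated cytosine is lost. The suffix CD is commonly used for its catalytic domain, which keeps the oxidase activity without the amino-terminal part of the protein. Vitamin C is a cofactor that raises the activity of this enzyme class and improves reprogramming of mouse fibroblasts. Dnmt1 works in the opposite sense, copying methylation to the new DNA strand after replication. In an early reprogramming culture most cells are still fibroblast-like, the viral factors are abundant, and fibroblast programmes are being turned down while proliferation and epithelial genes are being turned up.

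Tet1 transcript separated the libraries by their labels. Its normalized value was 16, 13 and 11 without Tet1CD in the control, Dnmt1 and shDnmt1 libraries and 2632, 2140 and 2448 with it. The log2 change was 7.04 ± 0.09 (limma, adjusted p = 2.892e-07). Here and below, ± gives limma's moderated SE. Dnmt1 stood at 984, 1001 and 527 without Tet1CD and at 967, 778 and 437 with it. The hairpin libraries were thus the lowest, while the libraries labelled Dnmt1 did not stand above their controls, so the Dnmt1 label is not borne out by the transcript and is used below only as a name. Of the reprogramming factors, Pou5f1 (Oct4) ranged from 2697 to 3885, Sox2 from 2233 to 2697 and Klf4 from 4210 to 5732 over the 6 libraries, and none of the 3 passed the test. Without the control pair Pou5f1 (-0.41) and Sox2 (-0.23) were called as falls. Fibroblast identity was visible in all libraries, with 13 of 14 fibroblast markers listed and Vim at the highest value of the table in every one.

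The table lists 10723 genes, all with a value of at least 32 in 2 or more of its 7 libraries. A gene below 32 in all 3 libraries without Tet1CD is thus listed only if a library with it reaches 32, and the reverse. The values had been normalized before deposit and hold no read depth, so no counting error can be attached to them. The libraries share a median of 180 and totals between 4477603 and 4478695. The scale ends at 19681, where 13 genes stand in at least 1 library, and changes of those genes are limited by that ceiling. In bulk RNA, a smaller number of expressing cells and less RNA per cell cannot be told apart.

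Adding Tet1CD changed 1579 genes, about as many upward as downward, and most by less than 2-fold. In limma's paired model 794 genes rose (7.4% of those tested) and 785 fell (7.32%) at a Benjamini-Hochberg adjusted p under 0.05. Only 46 of the rises and 14 of the falls reached 2-fold. The median log2 change was 0.45 among the genes that rose and -0.41 among those that fell, against -0.01 over all genes. All 1579 changed in the same direction in the 3 pairs, and in 1520 of them the 3 libraries with Tet1CD lay entirely above or below the 3 without. Over all genes, 17.1% had all Tet1CD libraries above and 18% had all below. The number of calls depended on the pairs: without the Dnmt1-labelled pair 3 genes rose and 2 fell, without the shDnmt1 pair 64 rose and 25 fell, and without the control pair 1181 moved each way, each with 1 residual degree of freedom. At an unadjusted p under 0.05 there were 3511 genes with all pairs and 1972 without the Dnmt1-labelled pair. Without that pair no gene list described below had more than 1 member called in either direction. A fit without the trend of variance with level called 204 rises and 100 falls. The signs of the 1579 genes could not change under these settings. Each gene had the same direction in all 3 pairs, and the variance trend does not enter the log2 change.

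**Figure D1:**
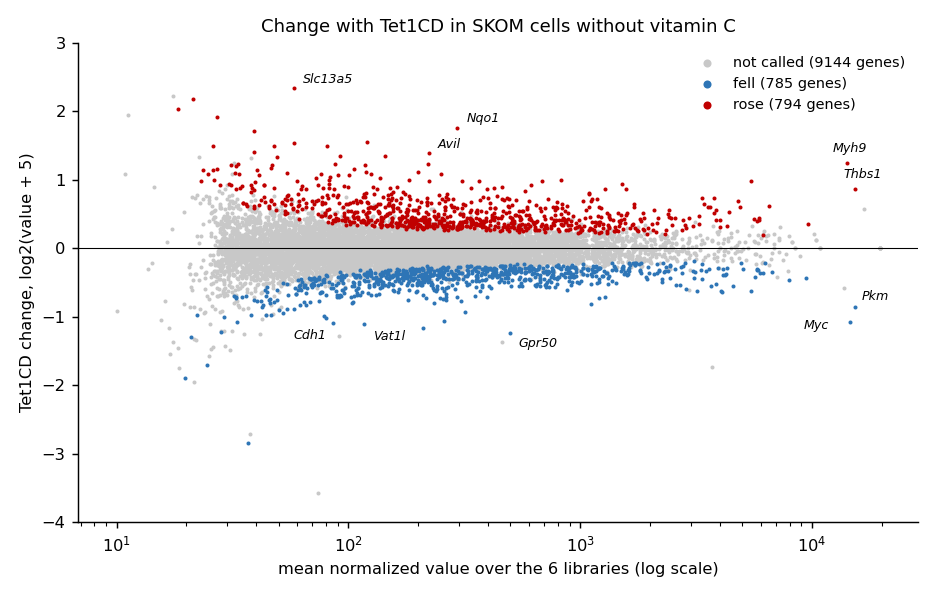
Change with Tet1CD, on the log2(value + 5) scale, against the mean normalized value over 6 libraries (log scale) for each gene; red points rose, blue points fell and grey points did not pass the test. Tet1, at a change of 7.04, is off the scale; the rises and falls lie at all levels, with Slc13a5 highest among the labelled genes and Gpr50 lowest, and Myh9, Thbs1, Myc and Pkm at the upper end of the scale.

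After Tet1 itself, the largest rises belonged to genes of varied function, from a citrate transporter to a quinone reductase and interferon-induced genes. Slc13a5, the plasma membrane citrate transporter, had values of 13, 18 and 17 without Tet1CD and 109, 98 and 94 with it, a log2 change of 2.33 ± 0.17 (adjusted p = 0.003945). The 2 groups were far apart in every pair. Slc13a5 was below 32 in all libraries without Tet1CD and is listed only through libraries with it. Xaf1, an interferon-inducible modulator of apoptosis, went from 34, 41 and 46 to 121, 129 and 115, a log2 change of 1.49 ± 0.12 (adjusted p = 0.004666). No Tet1CD library overlapped a library without it. These genes are neighbours on chromosome 11 (GRCm38): Slc13a5 lies on the minus strand at chr11:72241994-72266602 and Xaf1 on the plus strand at chr11:72301629-72309061, with 35 kb between their starts. Among the other 6 tested genes within 250 kb of either, Pitpnm3 rose (0.65), Mybbp1a fell (-0.50) and 4 did not pass the test; this neighbourhood was looked at after the values were seen. The RefSeq promoter windows of both (GRCm38.p6, 250 bases before to 50 after the start) are shown because they differ in CpG content; CpG dinucleotides, the sites of methylation in mammalian DNA, are in capitals. The Slc13a5 window is chr11:72266555-72266854, minus strand, and holds 17 CpGs at 0.56 of the number its base composition predicts; the Xaf1 window is chr11:72301379-72301678, plus strand, and holds 6 at 0.27.
Slc13a5: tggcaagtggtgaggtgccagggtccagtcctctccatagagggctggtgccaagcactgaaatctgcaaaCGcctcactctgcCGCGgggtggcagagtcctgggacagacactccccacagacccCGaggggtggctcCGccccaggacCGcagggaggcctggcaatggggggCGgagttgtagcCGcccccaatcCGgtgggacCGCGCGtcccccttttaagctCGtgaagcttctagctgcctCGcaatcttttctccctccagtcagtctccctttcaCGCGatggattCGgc
Xaf1: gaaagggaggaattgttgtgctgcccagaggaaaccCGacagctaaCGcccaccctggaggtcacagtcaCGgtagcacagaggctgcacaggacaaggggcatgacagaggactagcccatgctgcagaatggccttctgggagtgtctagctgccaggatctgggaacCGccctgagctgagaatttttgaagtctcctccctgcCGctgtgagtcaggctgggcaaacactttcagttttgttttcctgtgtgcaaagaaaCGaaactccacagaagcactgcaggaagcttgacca

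Nqo1, which encodes a quinone reductase of the antioxidant response, stood at 159, 112 and 113 without Tet1CD and 290, 641 and 457 with it (log2 change 1.76 ± 0.27, adjusted p = 0.01277). Its groups did not overlap, although the size of the step varied most in this gene among the leading rises, from the control pair as the smallest to the Dnmt1-labelled pair as the largest. Bmp6, a secreted bone morphogenetic protein, moved from 50, 40 and 60 to 143, 108 and 152 (1.34 ± 0.10, adjusted p = 0.003945), with a nearly equal ratio in each pair. Lgals3bp, a secreted glycoprotein that binds galectins, moved from 123, 123 and 142 to 256, 315 and 363 (1.23 ± 0.09, adjusted p = 0.003945). Again every Tet1CD library was above every library without it. Avil, an actin-severing protein of the villin family, differed between backgrounds already without Tet1CD, at 65, 114 and 203, and stood at 299, 238 and 417 with it (1.39 ± 0.21). The remaining leading rises were Glipr1 at 1.55, Mst1 (macrophage stimulating protein) at 1.54, C1qtnf3 at 1.35, Oasl2 at 1.23 and the receptor phosphatase Ptprb at 1.22. Besides Tet1, 16 genes were more than 2-fold higher in all 3 pairs, among them the neurotrophic factor Gdnf, the hepatocyte growth factor Hgf, the chondroitin sulfotransferase Chst3 and Xdh. Cdh19, a cadherin, was the gene at or below 10 in all libraries without Tet1CD that rose, from 10, 0 and 6 to 37, 38 and 37. Cdh19, Mst1 and Hgf were below 32 in all libraries without Tet1CD and are listed only through libraries with it.

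Among the falls, Gpr50, an orphan receptor related to the melatonin receptors, was the most reduced of the well expressed genes. It had values of 606, 726 and 766 without Tet1CD and 292, 286 and 301 with it, and fell by 1.23 ± 0.08 on the log2 scale (adjusted p = 0.003525). The groups lay more than 2-fold apart in each pair. Etv4, an ETS transcription factor, went from 376, 378 and 302 to 205, 148 and 149 (-1.06 ± 0.10, adjusted p = 0.00523), and Vat1l from 172, 175 and 138 to 81, 79 and 58 (-1.11 ± 0.09, adjusted p = 0.004538). Neither gene had overlapping groups. Msc (musculin), a basic helix-loop-helix repressor, went from 258, 341 and 272 to 174, 100 and 113 (-1.17 ± 0.20, adjusted p = 0.01612). Cdh1 (E-cadherin), the main adhesion molecule of epithelia, stood at 98, 135 and 118 without Tet1CD and 79, 38 and 46 with it (-1.09 ± 0.24, adjusted p = 0.03262), without overlap and with the smallest step in the control pair. The next falls were the kinetochore subunits Spc24 (-1.02) and Cenpn (-0.84), the milk casein gene Csn1s1 (-0.99), the myelin protein gene Pllp (-0.94), Anxa10 (-0.94), Fam131b (-0.91) and the uracil DNA glycosylase Ung (-0.89).

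**Figure D2:**
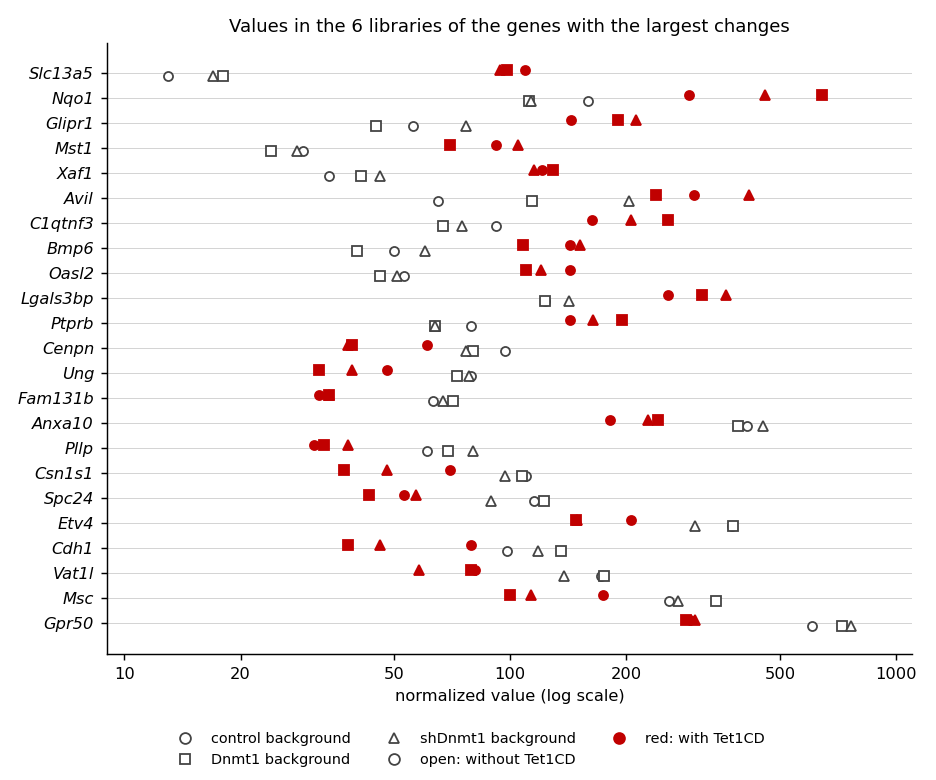
Normalized values (log scale) in the 6 libraries of the 11 largest rises after Tet1 and the 12 largest falls among genes with a mean of at least 50, no predicted name and all values below the ceiling of the scale; open symbols are libraries without Tet1CD, red symbols with it, and the shape gives the pair. In each gene the red symbols lie on one side of all open symbols, for example at 94 to 109 against 13 to 18 in Slc13a5.

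Interferon-stimulated genes rose as a group. They encode antiviral effectors and transcription factors of the response, and are induced by interferon signalling. Of the 33 members measured, out of 55 listed, 23 rose (7.4% of all genes rose) and 0 fell. A positive change was found in 33, with a median log2 change of 0.68 against -0.01 for all genes. In 29 of the 33, all Tet1CD libraries were above all libraries without it, where 17.1% of all genes did so. Oas2, Irf7, Zbp1, Ifi27, Parp14, Rtp4, Gbp3, Gbp7 and Ddx60 were below 32 in all libraries without Tet1CD. They are listed only because a library with Tet1CD reached 32. Members low in both groups are not seen, so these counts favour rises and are not a test. Of the transcription factors of the response, Stat2 rose from 85, 83 and 88 to 156, 147 and 155 (0.80) and Irf9 from 81, 92 and 82 to 131, 141 and 147 (0.69). Their values were tight within each group and well apart between groups. Irf7, an inducible amplifier of the response, went from 22, 27 and 25 to 66, 46 and 62 (1.07, adjusted p = 0.01796). Cytosolic sensors of double-stranded RNA rose too, with Ddx58 (RIG-I) at 0.59, Ifih1 (MDA5) at 0.70 and Eif2ak2 (PKR) at 0.42. Of the oligoadenylate synthetase family the list has values for 2 members, with Oas2 going from 16, 17 and 24 to 67, 43 and 67 (1.41 ± 0.20, adjusted p = 0.01041) and Oasl2 from 53, 46 and 51 to 143, 110 and 120 (1.23 ± 0.10, adjusted p = 0.004538). Zbp1, a sensor of Z-form nucleic acid, rose by 1.14. Not all members followed: Irf1 (39, 28 and 27 against 34, 40 and 24) and Ifit2 (39, 36 and 32 against 30, 44 and 36) had overlapping groups, and the class I genes H2-D1 (0.19), H2-K1 (0.12) and Tap1 (0.10) did not pass the test, while B2m (0.36) and Tapbp (0.38) rose. Without the Dnmt1-labelled pair no member of this list was called, and without the shDnmt1 pair 3 were; the list median stayed between 0.53 and 0.71 in these and all other settings tried.

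Ddx60, a helicase of the antiviral response, had the largest change of the list, from 6, 27 and 18 to 64, 55 and 64 (1.71 ± 0.33, adjusted p = 0.02116). Its 3 Tet1CD libraries were alike, and the spread lay among the libraries without it. The promoter window of Ddx60 (RefSeq, GRCm38.p6, chr8:61927837-61928136, plus strand) is shown because it holds 2 copies of the interferon response element pattern in capitals, that is GAAA and GAAA parted by 2 bases of any kind. This pattern, searched on both strands, is in 3.44% of the 32851 windows of the promoter table; a match is a description of the letters, not evidence of a bound factor.
Ddx60: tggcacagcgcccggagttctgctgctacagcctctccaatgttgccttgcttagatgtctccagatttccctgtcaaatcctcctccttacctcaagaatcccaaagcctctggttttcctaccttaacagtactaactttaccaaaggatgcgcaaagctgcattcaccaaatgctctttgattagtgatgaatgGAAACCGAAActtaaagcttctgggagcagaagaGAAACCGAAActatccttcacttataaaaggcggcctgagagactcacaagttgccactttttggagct

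Antioxidant genes of the NRF2 pathway formed a smaller rising group. NRF2 (Nfe2l2) is a transcription factor that is degraded through Keap1 at rest and, when released, switches on genes of glutathione, thioredoxin and quinone metabolism. Of 29 measured members 12 rose (7.4% of all genes rose) and 0 fell, with a median of 0.29, and 26 changes were positive. Beside Nqo1, Srxn1 (sulfiredoxin) went from 154, 149 and 174 to 287, 424 and 323 (1.08 ± 0.13, adjusted p = 0.007466), Hmox1 (haem oxygenase) from 294, 245 and 297 to 382, 538 and 455 (0.70 ± 0.14, adjusted p = 0.02249), and Aox1 from 63, 66 and 64 to 90, 118 and 138 (0.78 ± 0.13, adjusted p = 0.01551). The groups were apart in these 3 genes, and the Dnmt1-labelled pair had the largest step in Srxn1 and Hmox1. Smaller rises were found in the glutathione synthesis genes Gclm (0.47) and Gclc (0.34), the cystine transporter Slc7a11 (0.50), Txnrd1 (0.44) and the ferritin heavy chain Fth1 (0.56). Nfe2l2 (0.20) and Keap1 (-0.14) themselves did not pass the test, nor did the pentose phosphate genes G6pdx (0.16), Pgd (0.18), Tkt (0.05) and Taldo1 (0.06). Only 2 members were called without the variance trend, 1 without the shDnmt1 pair and 0 without the Dnmt1-labelled pair.
The promoter window of Srxn1 (RefSeq, GRCm38.p6, chr2:152105274-152105573, plus strand) holds a match to TGACNNNGC, the core of the antioxidant response element, on the minus strand and near the start (capitals); 12.4% of all windows hold this short pattern on either strand.
Srxn1: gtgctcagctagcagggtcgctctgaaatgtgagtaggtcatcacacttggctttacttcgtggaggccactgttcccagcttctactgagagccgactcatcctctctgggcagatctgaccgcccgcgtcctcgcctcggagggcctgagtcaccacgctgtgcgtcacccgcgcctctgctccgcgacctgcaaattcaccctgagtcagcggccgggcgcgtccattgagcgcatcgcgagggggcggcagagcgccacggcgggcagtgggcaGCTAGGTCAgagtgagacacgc

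Cell cycle genes fell in both phases examined. Of the 46 mitotic (G2/M) genes measured, 34 fell (7.32% of all genes fell), 0 rose, and the change was negative in 46, with a median of -0.49. Among 43 genes of G1/S and DNA replication 26 fell and 0 rose, with 43 negative changes and a median of -0.39. All Tet1CD libraries lay below all libraries without it in 40 of the 46 mitotic genes and 31 of the 43 replication genes, against 18% of all genes. Cdc20, the activator of the anaphase-promoting complex, went from 396, 408 and 347 to 284, 231 and 165 (-0.78 ± 0.11, adjusted p = 0.01129). Ccnf (cyclin F) went from 236, 247 and 204 to 159, 134 and 109 (-0.76 ± 0.09, adjusted p = 0.007578), and Ect2, an exchange factor needed for cytokinesis, from 343, 355 and 301 to 231, 184 and 175 (-0.75 ± 0.09, adjusted p = 0.007435). None of the 3 overlapped between groups. Ccnb1 (-0.74), Plk1 (-0.70), Birc5 (-0.71), Bub1b (-0.71) and Aurkb (-0.65) fell to a similar extent, whereas Mki67 (-0.21) and Cdk1 (-0.27) did not pass the test. In the replication list, Cdc6, which loads the replicative helicase, went from 152, 174 and 143 to 90, 92 and 103 (-0.69 ± 0.10, adjusted p = 0.01277), and Ccna2 (cyclin A) from 762, 806 and 704 to 589, 509 and 471 (-0.53 ± 0.08, adjusted p = 0.01081). The 6 subunits of the helicase, Mcm2 to Mcm7, all fell, by 0.38 to 0.51 on the log2 scale, as did Pcna (-0.50), Pole (-0.54) and Pold1 (-0.65). E2f1 (-0.04), Ccne1 (-0.23) and Ccne2 (-0.06), which act at the entry into S phase, did not pass. Of 6 cyclin-dependent kinase inhibitors none was called by limma and 3 had an unadjusted p under 0.05, with Cdkn1a between 2044 and 2701 in the 6 libraries. Only 7 mitotic genes and 1 replication gene were called without the variance trend, 1 and 0 without the shDnmt1 pair, and 0 and 0 without the Dnmt1-labelled pair, while the medians over all settings were from -0.58 to -0.37 and from -0.47 to -0.32.

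Promoter windows of 37 of the 46 mitotic genes were in the RefSeq table. The sequence TTTGAA, known as the cell cycle genes homology region and bound by the complex that represses and activates mitotic genes, was in 28 of them (75.7%) on either strand, against 17.9% of all windows. CCAAT, the box bound by NF-Y, was in 27 (73%) against 37.4%. Windows of 3 of the most reduced genes are shown with TTTGAA in capitals, on the strand of the gene: Cdc20 (chr4:118437294-118437593, minus strand), Ccnf (chr17:24251360-24251659, minus strand) and Ect2 (chr3:27153805-27154104, minus strand), all GRCm38.p6. The list was made up of mitotic genes whatever their change, so these shares describe the list and not the change.
Cdc20: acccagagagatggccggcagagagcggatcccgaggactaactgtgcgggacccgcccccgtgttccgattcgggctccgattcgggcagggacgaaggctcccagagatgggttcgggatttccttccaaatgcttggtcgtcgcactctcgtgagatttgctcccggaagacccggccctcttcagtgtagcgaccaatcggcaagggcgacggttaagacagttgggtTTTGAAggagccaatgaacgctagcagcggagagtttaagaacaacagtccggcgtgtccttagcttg
Ccnf: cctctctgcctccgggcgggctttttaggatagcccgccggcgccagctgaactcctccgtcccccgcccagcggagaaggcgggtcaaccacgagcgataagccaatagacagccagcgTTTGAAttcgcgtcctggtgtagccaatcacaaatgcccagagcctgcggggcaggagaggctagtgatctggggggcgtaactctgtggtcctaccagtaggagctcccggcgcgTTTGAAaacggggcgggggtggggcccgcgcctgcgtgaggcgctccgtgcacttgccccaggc
Ect2: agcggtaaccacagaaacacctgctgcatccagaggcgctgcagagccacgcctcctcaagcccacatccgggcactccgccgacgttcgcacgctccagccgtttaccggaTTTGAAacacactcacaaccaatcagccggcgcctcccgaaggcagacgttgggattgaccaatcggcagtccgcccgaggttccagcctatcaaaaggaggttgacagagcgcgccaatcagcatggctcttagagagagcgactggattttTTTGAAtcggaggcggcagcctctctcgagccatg

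Myc, one of the delivered factors and a driver of growth and ribosome production, was the reprogramming factor that fell. It stood at the top of the scale, 19681, in all 3 libraries without Tet1CD and at 10782, 7021 and 10782 with it, a log2 change of -1.07 ± 0.12 (adjusted p = 0.007295). Because the values without Tet1CD are at the ceiling, the fall may be larger than shown; viral and endogenous Myc transcripts are not separated in the table. Genes of ribosome biogenesis, typical Myc targets, fell in 14 of 35 measured members (7.32% of all genes fell) and rose in 0. Their changes were negative in 34, with a median of -0.31. Mybbp1a, a nucleolar protein, went from 2697, 2627 and 2541 to 2040, 1659 and 1887 (-0.50 ± 0.07, adjusted p = 0.01017), and Utp20 from 813, 876 and 829 to 583, 620 and 539 (-0.53 ± 0.06, adjusted p = 0.007578). Ncl (nucleolin) went from 8467, 10795 and 8467 to 7029, 6327 and 6571 (-0.47 ± 0.09, adjusted p = 0.0239). In each of these 3 the groups were apart. Of the 29 ribosome biogenesis genes with a promoter window, 8 (27.6%) held CACGTG, the E box that Myc with Max recognizes, against 7.15% of all windows. The list was made up of such genes whatever their change, so this share describes the list and not the change. A part of Myc in these falls was not tested. The count of falls in this list was 0 without the Dnmt1-labelled pair or the shDnmt1 pair and 1 without the variance trend. Other genes at the upper end of the scale were Pkm, from 19681 in 3 libraries to 10794 in 3 (pyruvate kinase), and Thbs1 (thrombospondin), from 10794 to 19681, while Myh9 (non-muscle myosin heavy chain) went from 8451, 6311 and 10782 to 19681 in all 3 libraries with Tet1CD. These fold changes are set by the few shared values at the top of the scale.

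Many genes of the extracellular matrix and its proteases rose. Of 50 measured extracellular matrix genes 23 rose and 2 fell (7.4% and 7.32% of all genes), with a median of 0.31, and of 18 matrix proteases and inhibitors 9 rose and 0 fell, with a median of 0.40. Collagens of basement membrane and fibrils were among them: Col15a1 went from 87, 83 and 96 to 188, 185 and 181 (1.02 ± 0.09, adjusted p = 0.0047), Col4a2 from 2377, 2234 and 3008 to 4422, 3887 and 4212 (0.73), and Col1a2 from 4833, 4633 and 4833 to 6573, 5762 and 7031 (0.43). These values did not overlap between groups. In contrast Col1a1 (0.09), Col3a1 (0.16), Fn1 (0.12) and Sparc (0.18) did not pass the test. Dcn (decorin) fell, from 335, 296 and 279 to 227, 220 and 217 (-0.44), as did Fbn2 (-0.38). Of the proteases, Adamts5, an aggrecan-cleaving enzyme, went from 136, 132 and 135 to 245, 221 and 231 (0.77 ± 0.07, adjusted p = 0.00523), and Ctsl (cathepsin L) from 2784, 2784 and 2872 to 4220, 5064 and 4826 (0.74 ± 0.06, adjusted p = 0.0047). Mmp2 (0.32), Mmp14 (0.32) and the inhibitors Timp1 (0.44) and Timp2 (0.34) rose as well. The matrix count was 1 without the Dnmt1-labelled pair, and 5 without the shDnmt1 pair or the variance trend.

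Lysosomal genes rose in 12 of 31 measured members (7.4% of all genes rose) and fell in 0, with a median of 0.26 and 30 positive changes. They included the hydrolases Ctsz (0.69), Lgmn (0.60) and Ctsd (0.51), Ctsk (cathepsin K, 0.89), which like Ctsl is also in the protease list, and the membrane protein Lamp2 (0.56). The lysosomal count was 3 without the shDnmt1 pair, 0 without the Dnmt1-labelled pair and 4 without the variance trend. Of 30 secreted cytokines, chemokines and growth factors 10 rose and 1 fell (7.4% and 7.32% of all genes). The count of rises was 0 without the Dnmt1-labelled pair, 1 without the shDnmt1 pair and 4 without the variance trend. Hgf went from 0, 12 and 18 to 26, 52 and 54 (1.91 ± 0.33, adjusted p = 0.01653), Csf1 from 403, 335 and 465 to 620, 580 and 658 (0.63 ± 0.08, adjusted p = 0.007578), and Ctgf from 3006, 2780 and 2867 to 4620, 3885 and 4620 (0.60). Vegfa (0.44), Bdnf (0.39), Il1rn (0.49) and Grem1 (0.60) also rose. The fall was in Tslp, an epithelial cytokine, from 32, 34 and 30 to 10, 9 and 11 (-1.30 ± 0.27, adjusted p = 0.02574). Leukocyte markers moved in the same direction: 5 of 27 were listed, and their summed value was 303 to 400 in libraries without Tet1CD and 666 to 759 with it. Laptm5 rose from 212, 243 and 285 to 510, 425 and 529 (0.97), Itgam from 44, 53 and 63 to 112, 92 and 102 (0.88), Cd68 from 37, 41 and 39 to 62, 72 and 68 (0.72) and Ptprc (CD45) from 9, 12 and 13 to 43, 44 and 36. Clec4d stood at 1, 0 and 0 against 32, 33 and 1 and did not pass. Hgf, Ptprc and Clec4d were below 32 in all libraries without Tet1CD and are listed only through libraries with it. Tslp was below 32 in all libraries with Tet1CD and is listed only through libraries without it. The other 22, among them Csf1r, Tyrobp, Lyz2 and the C1q genes, are not listed in the table. The part of these markers in the lysosomal, cytokine and interferon results was not tested.

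**Figure D3:**
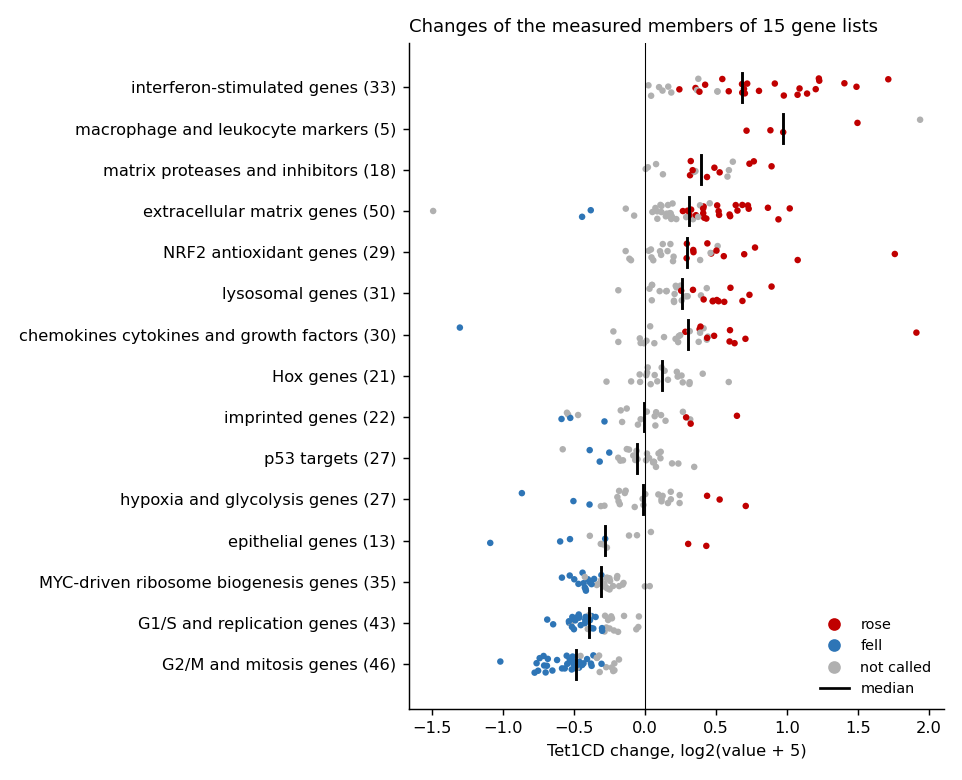
Change with Tet1CD (log2(value + 5)) of each measured member of 15 gene lists, with the number measured in brackets; red members rose, blue fell, grey did not pass the test, and the black line is the median. Interferon-stimulated genes have a median of 0.68 and lie entirely to the right of 0, and the 46 mitotic genes, with a median of -0.49, entirely to the left.

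None of the few measured pluripotency genes was called, where 7.4% of all genes rose and 7.32% fell. With 7 members, 0 calls is near those shares. Of 31 listed, 7 were measured, namely Pou5f1, Sox2, L1td1, Klf5, Tbx3, Lin28b and Alpl, 0 rose or fell by limma's adjusted p, and 0 had an unadjusted p under 0.05. Without the control pair 3 of the 7 were called as falls, and without either other pair 0 were. L1td1, an RNA-binding protein of embryonic stem cells, had overlapping values of 429, 468 and 564 without and 695, 446 and 677 with Tet1CD (adjusted p = 0.1793). Nanog, Esrrb and Dppa5a are among the 24 not listed in the table. Germline genes, many of which have methylated promoters in fibroblasts, were measured in 2 of 32 cases: Sycp1 stood at 50, 60 and 50 against 61, 62 and 64 and Tex15 at 101, 115 and 111 against 94, 104 and 103, and neither passed. Every gene of the table reaches 32 in at least 2 of its 7 libraries, so genes switched on from 0 in only 1 library are outside what can be seen. Genes switched on in 2 or more libraries can pass that minimum. Of 21 Hox genes, which set positional identity, none was called, where 7.4% of all genes rose and 7.32% fell. Among these Hox genes 6 had an unadjusted p under 0.05, with a median change of 0.12 over the list. Without the control pair 4 were called as rises. Hoxc6 had the smallest p, at 158, 152 and 175 against 184, 205 and 197.

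Epithelial genes gave a mixed picture, with 4 of 13 falling and 2 rising (7.32% and 7.4% of all genes). Changes were negative in 10 of the 13, with a median of -0.28. The counts were 0 each way without the variance trend, without the Dnmt1-labelled pair and without the shDnmt1 pair. Next to Cdh1, Cd24a fell from 2872, 3316 and 4220 to 2300, 2192 and 2300 (-0.60) and Krt19 from 166, 193 and 187 to 110, 155 and 113 (-0.53), while the desmosomal genes Dsp (0.43) and Jup (0.30) rose. Epcam (-0.29) and Krt8 (0.04) did not pass. Imprinted genes, expressed from 1 parental allele under control of methylated regions, had 3 of 22 rows called each way, with 7.4% of all genes rising and 7.32% falling, and the few calls are given as single genes. Meg3, a maternally expressed noncoding RNA, went from 719, 596 and 640 to 1001, 959 and 1109 (0.65 ± 0.08, adjusted p = 0.007435), and H19, also maternally expressed, from 1086, 933 and 783 to 762, 659 and 526 (-0.53 ± 0.06, adjusted p = 0.007295). Mest, a paternally expressed gene, fell from 107, 97 and 103 to 65, 75 and 60 (-0.59). The groups did not overlap in any of the 3. Igf2, the neighbour of H19, stood at 1187, 1019 and 1076 against 1003, 1097 and 1111 and did not pass.

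In the DNA methylation machinery 3 of 20 members rose and 3 fell, 1 of the rises being the delivered Tet1, with 7.4% and 7.32% over all genes. The members are given as single genes. Besides Tet1, the cytidine deaminase Apobec1 went from 50, 43 and 48 to 69, 79 and 78 (0.63) and Gadd45b from 41, 51 and 49 to 80, 68 and 75 (0.61). Uhrf1, which guides Dnmt1 to newly copied DNA, fell from 685, 721 and 667 to 603, 443 and 478 (-0.45 ± 0.10, adjusted p = 0.03191), and so did Tdg (-0.34), the glycosylase that excises oxidized methylcytosine, and Trim28 (-0.36). Uhrf1 is also a member of the G1/S list above. Tet2 (-0.22) and Tet3 (-0.05) did not pass, nor did Dnmt3a (-0.10). Of 27 p53 targets 0 rose and 3 fell, near the 7.32% of all genes that fell: Bbc3 (Puma) from 177, 170 and 201 to 139, 137 and 138 (-0.39), Apaf1 (-0.32) and Zmat3 (-0.25), with a median of -0.05. Cdkn1a (0.10), Mdm2 (0.11) and Bax (-0.07) did not pass.

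The 3 pairs did not give changes of the same size. Of all genes, 24.6% were higher and 26.5% lower with Tet1CD in all 3 pairs, and the others differed in sign or were level in a pair. Across all genes, Pearson's r between pair log2 ratios was 0.63 for the Dnmt1-labelled and shDnmt1 pairs, 0.44 for the control and Dnmt1-labelled pairs and 0.41 for the control and shDnmt1 pairs; genes are not independent replicates, and the pairs were normalized within 1 table. Among the 1579 called genes the Dnmt1-labelled pair had the largest ratio in 877, the shDnmt1 pair in 370 and the control pair in 332. Median ratios of the genes that rose were 0.39, 0.53 and 0.46 in the control, Dnmt1-labelled and shDnmt1 pairs, and of those that fell -0.35, -0.47 and -0.41. In the mitotic list the control pair had the smallest change in 38 of 46 members, with a list median of -0.32 against -0.68 and -0.45. The interferon list differed from this order, with medians of 0.66, 0.54 and 0.78, the control pair being smallest in 10 of 33 members. With 1 library per combination there is no test of a difference between pairs.
Genes whose ratio in one pair lay farthest from the other pairs are described with no test. The widest gap was in the predicted gene Gm20388, at 317, 126 and 0 without Tet1CD and 0 in all 3 libraries with it. In the Dnmt1-labelled pair, the predicted gene Gm7334 went from 86 to 10 while the others went from 140 to 77 and from 136 to 99. In the same pair, Rnaset2a went from 57 to 121 while the control pair went from 96 to 88 and the shDnmt1 pair from 80 to 66, and Bcl11a went from 105 to 42 while the others went from 94 and 92 to 80 and 80. In the shDnmt1 pair, Sncg (gamma-synuclein) went from 42 to 88 against 67 to 64 and 69 to 71. Ccng1 and Itgb1 stood apart in that pair because of the top of the scale: Ccng1 was at 19681, 19681 and 10782 without Tet1CD and 10782 in all 3 with it.

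**Figure D4:**
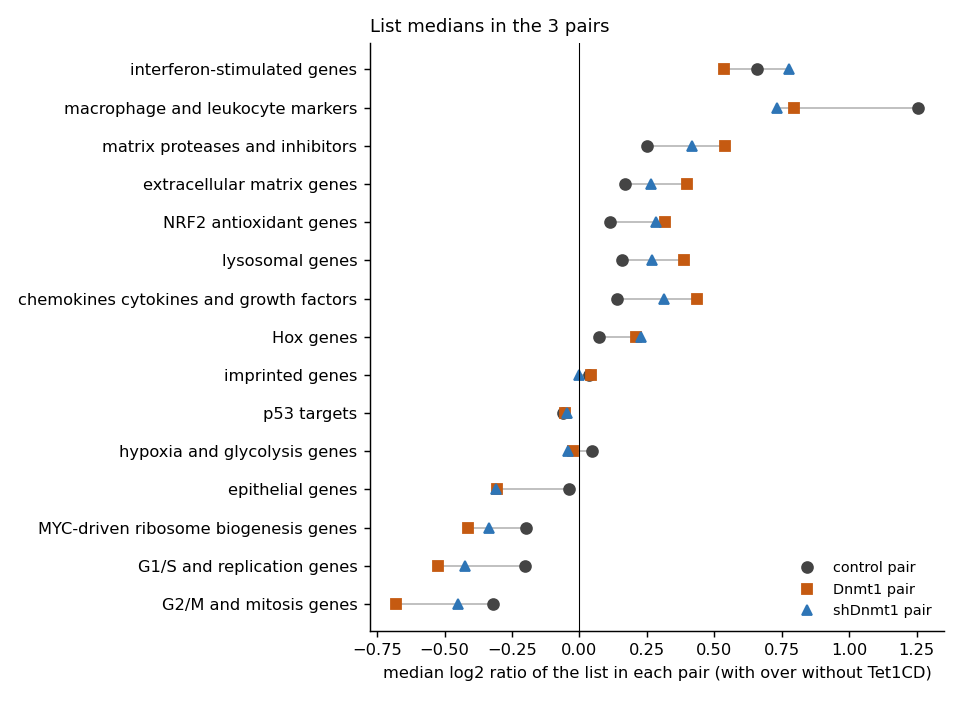
Median log2 ratio, with over without Tet1CD, of the measured members of 15 gene lists in each of the 3 pairs. The control pair lies nearest to 0 in most lists, such as the mitotic genes (-0.32 against -0.68 and -0.45), and between the other pairs in the interferon list (0.66 against 0.54 and 0.78).

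CpG content in the first bases of the transcript differed between genes that rose and fell. Sequence upstream of the start was not compared between these groups. CpG content was taken from the first 300 bases of a GENCODE transcript for 10614 of the tested genes (99%), as the ratio of observed CpGs to the number that base composition predicts; genes with a low ratio tend to lack a CpG island, and CpG islands are mostly free of methylation. The median ratio was 0.67 in genes that rose, 0.80 in genes that fell and 0.76 over all genes. It was 0.44 in the 46 genes that rose at least 2-fold. In the 14 genes that fell at least 2-fold it was 0.65, also below that of all genes, so the large falls did not share the higher ratio of the falls. Among 1145 genes with a ratio below 0.35, 12.5% rose and 4.98% fell. Among 6839 genes with a ratio of at least 0.65, 5.97% rose and 8.09% fell. Genes between these limits were intermediate, with 9.09% and 6.2%. More highly expressed genes were called more often, so the shares were also taken by level: the low class rose more often than the high class at mean values below 100 (8.19% against 2.99%), from 100 to below 500 (14.1% against 6%) and at 500 and above (22.7% against 9.4%). The falls ran in the opposite order in the upper levels, 13.7% of high and 8.44% of low class genes at 500 and above, but not below 100, where 3.89% and 4.28% fell. Lists differed in the same measure, with a median ratio of 0.52 in matrix genes, 0.54 in interferon-stimulated genes and 0.82 in mitotic genes. No methylation was measured in these libraries, and these shares describe sequence only.

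**Figure D5:**
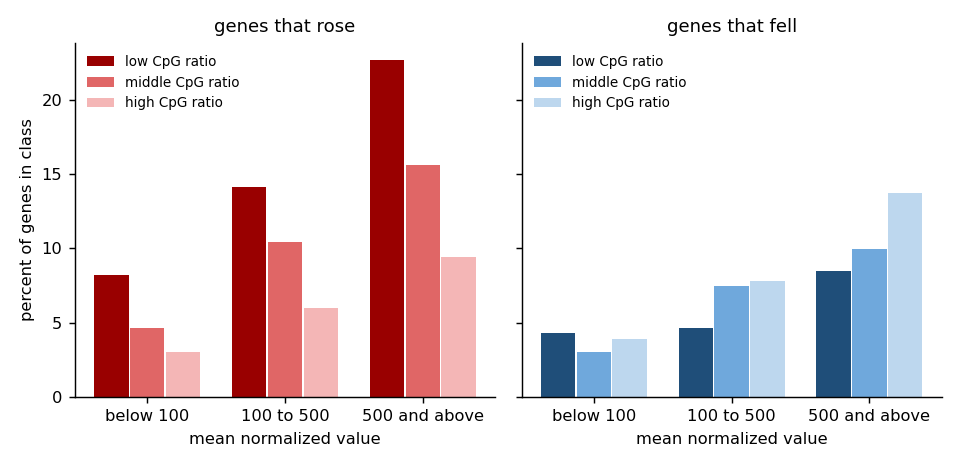
Percent of genes that rose (left) and fell (right) with Tet1CD, by the CpG ratio of the first 300 transcript bases (low below 0.35, high from 0.65) within 3 bands of mean normalized value. The share of rises is highest in the low class in each band, reaching 22.7% at mean values of 500 and above.

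The same 3 pairs were also made in medium with vitamin C, and the test of the difference compared the Tet1CD change between the media over 12 libraries. Of 10711 genes in both tables, 926 (8.65%) had a more upward change with vitamin C and 876 (8.18%) a more downward one. The genes that rose without vitamin C had a median log2 change of 0.45 there and 0.66 with it, and 727 of 793 (91.7%) had the same sign in both media. Genes that fell had medians of -0.41 and -0.63, and 740 of 784 (94.4%) shared the sign. Over all genes 73.8% shared it, and the median changes were -0.01 and -0.07. Among the genes that rose, 206 rose further with vitamin C by the test of the difference and 57 less; among those that fell, 147 were lower still and 36 less so. For the interferon list the medians were 0.68 without and 1.35 with vitamin C, and 20 of 33 members had a more upward change with it. Mitotic genes had medians of -0.49 and -0.92, with 12 of 46 more downward, and replication genes -0.39 and -0.89, with 21 of 43 more downward. The NRF2 list had equal medians of 0.29 in both media, and 2 of 29 members differed in each direction. Leukocyte markers had medians of 0.97 and 2.56.

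Some changes seen without vitamin C were smaller or reversed in cells with it. Slc13a5 had the largest rise after Tet1 without vitamin C (2.33) and a change of 0.80 with it, from 71, 59 and 46 to 85, 115 and 115, a difference of -1.54 ± 0.28 (adjusted p = 0.008194). Bmp6 changed by 1.34 without and 0.33 with vitamin C, a difference of -1.01 ± 0.14 (adjusted p = 0.002308), and Etv4 by -1.06 and -0.11, a difference of 0.95 ± 0.18 (adjusted p = 0.008906). Egln3, an oxygen-sensing prolyl hydroxylase, went up without vitamin C, from 122, 142 and 169 to 226, 186 and 215, and down with it, from 454, 533 and 481 to 180, 223 and 175. Its difference was -1.85 ± 0.16 (adjusted p = 0.0002489). Tslp moved the other way, with a change of -1.30 without and 1.97 with vitamin C and a difference of 3.28 ± 0.30 (adjusted p = 0.0004121). Msc had a negative change in both media, -1.17 without and -2.78 with vitamin C, a difference of -1.61 ± 0.26 (adjusted p = 0.004801). Tet1 itself changed by 7.04 without and 5.57 with vitamin C, from 54, 65 and 41 to 3129, 2591 and 2503 in the latter. The tables of the 2 media were normalized separately, and only changes within a table enter the difference. Leaving out a pair in both media gave 162 to 719 genes more upward and 101 to 583 more downward with vitamin C, the lowest without the Dnmt1-labelled pair.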

How the data were processed

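RNA sequencing values of 21 libraries were deposited in 3 tables; the table of cells without vitamin C was used here, with the vitamin C table for the test of the difference. Per the submitters' processing notes the authors used Bowtie, RSEM and the build mm10; of their versions and roles, the counting strand, the scaling and any filter on genes, nothing is given in the sources used here. The values the authors deposited were treated as a score, being whole numbers that look like counts but share one median and nearly one sorted list within a table, so they had been normalized by the authors and no count test was used. Every sample column of the used tables was matched to its label, and the shp53+shDnmt1 column of each was left out of the fits.

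Values were tested as log2(value + 5) with limma 3.58.1 in R 4.3.3 (empirical Bayes with an intensity trend, pair as block, 2 residual degrees of freedom), with Benjamini-Hochberg adjustment over all genes with a mean of at least 10; folds on this scale understate changes of low genes. The difference between media was the interaction of Tet1CD and medium over 12 libraries with 6 pairs as blocks (4 residual degrees of freedom). The pairing comes from the labels, which give each Tet1CD library the same construct as its partner. Lists were described by counts and medians, and a few genes stand in 2 lists. Named genes were Tet1, Dnmt1 and the factors, the 12 largest changes each way among called genes with a mean of at least 50, the same sign in all pairs, a value below the ceiling and no predicted name, up to 4 members of each list (by size of change among called members, otherwise up to 2 by p), the 5 genes each way that set the Dnmt1 or shDnmt1 pair farthest apart, the 6 largest differences each way between media and called genes at or below 10 without Tet1CD; the other genes named were chosen after their values were seen, and some genes are not reported here. The members and lists were chosen with earlier results of these data known. Promoter windows are from a RefSeq table and were matched for 8235 of 10723 genes (76.8%), within 20000 bases of the gene's start; as fewer than 80% matched, promoter shares are given only for lists with at least 80% matched. Gene positions are those the authors deposited with the values (mm10, that is GRCm38), and transcript sequences are from GENCODE M21. The method was tested on simulated data. Alternatives were other pseudocounts, filters, scalings, variance models, no pair block and leaving out each pair.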

Additional observations from a re-analysis of the deposited data

Results flagged for a closer look

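The results below were marked because the Tet1CD change differed between the media by limma's interaction test over 12 libraries. The change was more upward with vitamin C in 926 genes and more downward in 876. The genes with the largest more upward change, given as the log2 change with vitamin C minus that without, were Tslp (3.28), Esm1, an endothelial proteoglycan gene (2.99), 9530053A07Rik (2.97), the histone methyltransferase gene Suv39h2 (2.26), Hist1h4i (2.23) and Glipr1 (2.06). Esm1 went from 31, 24 and 14 to 55, 87 and 75 without vitamin C and from 60, 39 and 48 to 1333, 1049 and 1198 with it. In medium without vitamin C, Esm1 was below 32 in all libraries without Tet1CD and is listed only through libraries with Tet1CD. Suv39h2 fell from 133, 122 and 107 to 103, 87 and 83 without vitamin C and stood at 229, 270 and 235 against 753, 607 and 1635 with it. The largest more downward differences were in Egln3 (-1.85), Gcat (-1.62), Msc (-1.61), Slc13a5 (-1.54), Prr18 (-1.50) and Tet1 (-1.47). No group here has enough libraries for a test of single outlying values.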

How the results depend on the processing

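Without a pair, 1 residual degree of freedom is left in the main model. Leaving out 1 pair at a time gave 3 to 1181 rises and 2 to 1181 falls, with the low ends without the Dnmt1-labelled pair; 64 genes rose and 25 fell without the shDnmt1 pair. Without the intensity trend 204 rose and 100 fell, of which 197 and 89 were also called in the main model; the cause was not tested. The fit with no replicate block called 851 rises and 859 falls, 721 and 707 of them shared, so the pairing moved neither count by over 1.5 times. A pair left out gave 162 to 719 genes with a more upward and 101 to 583 with a more downward change with vitamin C. The sign reversed for genes that were not called: Pou5f1 was at 0.0098 and Klf4 at 0.0078 without the Dnmt1-labelled pair, and Klf4 at 0.065 without the shDnmt1 pair, their lowest values being -0.41 and -0.19 without the control pair. Pseudocounts of 1 and 20, a minimum mean of 50, robust variance, median centring and quantile normalization gave 782 to 1000 rises and 781 to 1020 falls. The filter on low values removed no gene.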

Other observations

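Further gene lists had small numbers of calls. In several of them this was a larger share than the 7.4% of all genes that rose or the 7.32% that fell. Of 16 immediate early genes 4 rose and 0 fell, including Fosl2, an AP-1 subunit, from 463, 451 and 492 to 676, 744 and 726 (0.60 ± 0.07, adjusted p = 0.007295 by limma), and the phosphatase Dusp1 (0.43). Of 17 contractile genes 3 rose (9 without the control pair, 1 without the shDnmt1 pair and 0 without the Dnmt1-labelled pair), with Vcl (vinculin) going from 2867, 2779 and 2779 to 3688, 5059 and 4208 (0.61). Among 27 hypoxia and glycolysis genes 3 rose and 3 fell, with Ero1l, an oxidase of disulfide formation, from 403, 401 and 394 to 584, 690 and 702 (0.71) and Ndrg1 from 110, 114 and 95 to 73, 72 and 75 (-0.50). Of 22 cholesterol synthesis genes 3 rose, among them Msmo1 (0.41) and Insig1 (0.30). Within 25 genes of the unfolded protein and ATF4 responses 2 rose and 5 fell, with Ddit3 at 0.66 and Shmt2 at -0.43.

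Markers of further cell types were few. Of 16 endothelial markers 5 were listed, and Eng, a coreceptor for transforming growth factor beta, rose from 242, 233 and 266 to 357, 373 and 386 (0.58). Of these 5 markers 2 rose, Eng and Esm1, and 0 fell, while 3 changes were positive and 2 negative. The summed value of the 5 was 818 to 833 without and 987 to 1009 with Tet1CD. Of 20 skeletal muscle markers 3 were listed, with 2 positive changes and 1 negative. Tnnt2 was the 1 that rose, from 29, 26 and 29 to 44, 59 and 72 (0.92). Esm1 and Tnnt2 were below 32 in all libraries without Tet1CD and are listed only through libraries with it. Of 11 neural and glial markers measured 3 rose and 1 fell (7.4% and 7.32% of all genes), Gap43 (-0.49) being the fall.

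Yam1 and Lars2, chosen after their values were seen, stood apart in the control library without Tet1CD. Yam1 was at 10788, 5742 and 1318 without Tet1CD and 974, 2448 and 933 with it, and Lars2, a mitochondrial tRNA synthetase gene, at 1381, 532 and 212 against 212, 257 and 161. Neither passed the test, with adjusted p = 0.05758 and 0.05408 by limma. Olfm3, chosen the same way, had the largest fall among called genes, from 65, 63 and 63 to 0, 30 and 0 (-2.84 ± 0.56). Olfm3 was below 32 in all libraries with Tet1CD and is listed only through libraries without it.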
